A study of Rattus norvegicus with 30 samples.

Results

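The genes described here encode voltage-gated potassium, calcium and sodium channels, the other potassium channels and their accessory subunits, measured in whole adrenal glands of the rat. They were chosen by gene symbol alone, as every gene whose symbol starts with Kcn, with Cacn, or with Scn and a digit, and of the 99 that matched among 14557 genes with a named probe set, the 38 whose mean log2 signal lay above the array median (4.46 on average) are described. Kcnq5 lay just inside that limit, at 4.47, and Kcnb2 just outside it, at 4.40. The median was taken over all probe sets, also those without a gene symbol. Of the 14557 genes, 41.8% had a mean no higher than that of Kcnq5, so a signal above the limit is common. The signal exceeded the median of its own array on all 30 arrays for 17 of the 38 genes and on under 20 arrays for 5 of them. For 3 of the 38, Kcnq3, Kcnq5 and Cacng1, the mean fell under the limit when the group of highest signal was left out.

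Adult Wistar rats, 12 weeks old, were sham operated, orchiectomized (ORX) or ovariectomized (OVX), and 5 rats entered each of 6 groups, with 1 array per rat. The 3 male groups were sham-operated rats (control males), ORX rats without hormone, and ORX rats with testosterone replacement (ORX + T). The 3 female groups were likewise sham-operated (control females), OVX without hormone, and OVX with estradiol replacement (OVX + E). Testosterone (5 mg per 100 g of body weight) or estradiol (0.5 mg per 100 g) was injected under the skin as a depot 14 days after surgery, and all glands were taken 4 weeks after surgery. No vehicle injection is named for the other groups, so hormone and injection cannot be told apart.

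The membrane potential of adrenal cells is set mainly by potassium channels. In the aldosterone-producing cells of the zona glomerulosa, leak potassium channels hold the membrane close to the potassium equilibrium potential, and angiotensin II or a rise in extracellular potassium depolarizes it, opens voltage-gated calcium channels and lets in the calcium that drives steroid synthesis. Chromaffin cells of the medulla fire action potentials carried by voltage-gated sodium and calcium channels, and the calcium that enters releases catecholamines. Auxiliary subunits carry no current themselves and alter the number, position or gating of the pores.

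Most markers fixed for the cortex and the medulla lay above the array median, a limit that many other genes also exceeded. These were 5 of 6 measured zona glomerulosa markers, 5 of 5 zona fasciculata markers and 9 of 10 chromaffin cell markers. The RNA came from entire glands, so fewer cells of a type and less RNA per cell cannot be told apart in such samples. The deposited log2 signals did not have the same spread on every array. The standard deviation (SD) over all probe sets ran from 1.43 to 1.60 on 10 arrays, here called narrow, and from 1.67 to 1.75 on the other 20, and each control group held 1 narrow array and each of the other groups 2. On narrow arrays the brightest channel genes read low: Kcnk3, Kcnk9 and Cacna1h had their lowest values on the narrow arrays in 6 of 6 groups. The same held for Kcna3, Kcng2, Kcng3, Kcnk12 and Scn7a, which had lower signal. Some dim genes went the other way: Kcnh8 had its highest values on the narrow arrays in 6 of 6 groups, and Kcnk7 and Cacna2d2 in 5 of 6. Results are therefore given for all 30 arrays and again for the 20 others, which keep 3 or 4 arrays a group. Which arrays were normalized together was not given in the sources used here, so the part of the normalization in this spread was not tested.

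Few of the 38 genes changed at an adjusted p under 0.05 (limma, adjusted over all 14557 genes), as the plot of the share of genes called shows. ORX + T vs. ORX gave 2 genes, a lower Kcnk3 and a higher Kcnh2, which is 5.26% of the 38 genes against 2.05% of all genes. In ORX + T vs. control males 1 gene passed, Kcnq3, where 0.941% of all genes did. Kcnq3 met the signal limit only through the control males, so this call was partly fixed by the choice of genes. In OVX + E vs. OVX 1 gene passed, Kcnj14, where 1.69% of all genes did. Control females vs. control males also gave 1 gene, Cacna2d1, against 0.433% of all genes. By limma no gene of the 38 passed in ORX vs. control males (0.055% of all genes called), in OVX vs. control females (0.165%) or in OVX + E vs. control females (0.234%), where 2, 3 and 3 of them (5.26%, 7.89% and 7.89%) had an unadjusted p under 0.05, against 4.72%, 3.93% and 4.65% of all genes. Where genes passed, the share with an unadjusted p under 0.05 was 23.7% of the 38 against 7.93% of all genes in ORX + T vs. ORX. It was 18.4% against 5.16% in ORX + T vs. control males, Kcnq3 included, and 18.4% against 10.3% in OVX + E vs. OVX. In control females vs. control males it was 13.2% against 4.01%. A fold above 2 was reached beside the adjusted p by Kcnk3 in ORX + T vs. ORX, where 1.04% of all genes met both limits. Cacna2d1 also reached it in the comparison of control animals, where 0.275% of all genes did. The other 33 genes passed in none of these comparisons nor in the tests of a difference between the sexes, and the largest difference among them was that of Cacna1h, at 0.96 on the log2 scale between the responses of the sexes to replacement, and at -0.72 between 2 groups, in ORX + T vs. control males.

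**Figure D1:**
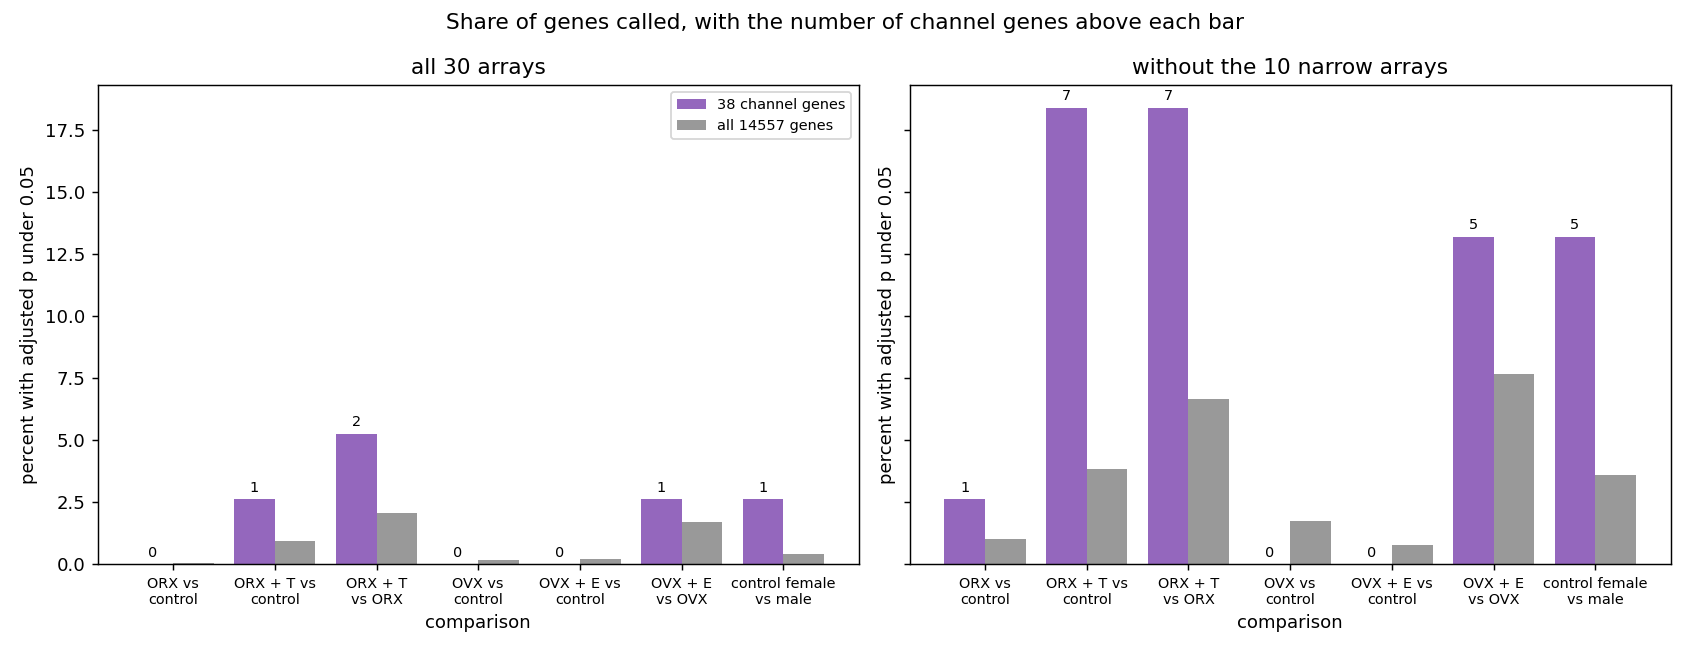
Percent of genes with an adjusted p under 0.05 (limma, y axis) in each comparison of groups (x axis), with all 30 arrays on the left and without the 10 narrow arrays on the right. Purple bars stand for the 38 channel genes, with their number above each bar, and gray bars for all 14557 genes. The number of channel genes in ORX + T vs. ORX is 2 on the left and 7 on the right, while the gray bar rises from 2.05% to 6.68%.

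Without the 10 narrow arrays more of the channel genes passed, and more of all genes did. ORX + T vs. ORX then gave 7 of 38 genes (18.4%, against 6.68% of all genes): Kcnh2 and Kcnq1 rose, and Kcnk3, Kcnk9, Cacna1h, Kcnd2 and Kcnd3 fell. ORX + T vs. control males gave 7 genes (3.85% of all genes), Kcnq3 again among them. OVX + E vs. OVX gave 5 (7.69%), control females vs. control males gave 5 (3.60%) and ORX vs. control males gave 1 (1.02%). The difference between the sexes in response to replacement gave 4 (4.30%), namely Cacna1h, Cacna2d1, Kcnd2 and Kcnk12. By limma, OVX vs. control females and OVX + E vs. control females still gave 0 of 38, where 1.74% and 0.776% of all genes passed. An unadjusted p under 0.05 was found in OVX vs. control females for 10 of 38 and for 1702 of 14557 genes (11.7%). In OVX + E vs. control females it was found for 4 of 38 and for 1452 of 14557 genes (9.97%). The share of the 38 was above that of all genes in the first comparison and close to it in the second.

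**Figure D2:**
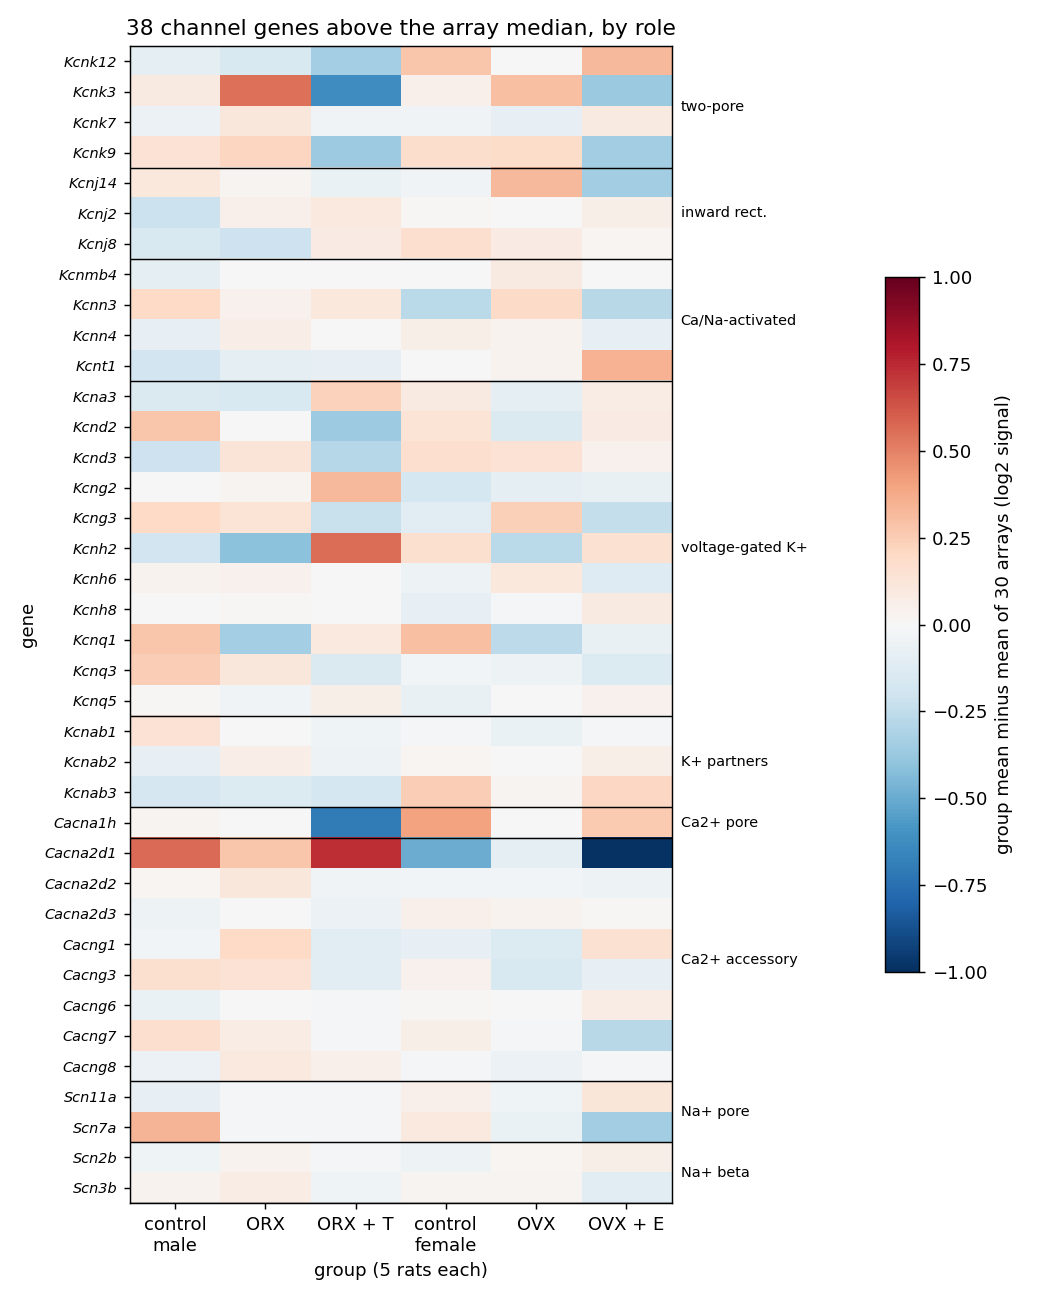
Mean log2 signal of each group of 5 rats (columns) minus the mean of the 30 arrays, for the 38 channel genes (rows) sorted by role. Red stands for a group above the mean of all arrays and blue for a group below it. The strongest colors lie in Cacna2d1 (6.30 in OVX + E and 8.02 in ORX + T), Kcnk3, Cacna1h and Kcnh2.

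Leak potassium channels of the K2P family (4 of 12 matching genes were above the array median) included the pair that sets the resting potential of glomerulosa cells, Kcnk3 (TASK-1) and Kcnk9 (TASK-3). The log2 signal of Kcnk3 on the 5 arrays of control males was 9.40, 9.68, 9.16, 9.61 and 9.68, that of ORX rats was 10.19, 10.24, 9.65, 10.13 and 9.62, and that of ORX + T rats was 9.05, 8.25, 9.17, 9.01 and 8.46. Every ORX + T rat lay below every ORX rat. The difference was -1.18 ± 0.23 (SE, 5 rats per group), a 2.26-fold lower signal, with an adjusted p of 0.00286 by limma and an exact two-sided permutation p of 0.00794, the smallest that 5 against 5 arrays allow. This call held when any single array of the compared groups was left out, with the adjusted p (limma) at most 0.0246 over all alternatives tried, and the difference was -1.11 ± 0.13 without the narrow arrays (adjusted p = 7.32e-06, limma).

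Against control males, the Kcnk3 signal was 0.46 higher in ORX rats and 0.72 lower in ORX + T rats on the log2 scale, and neither passed the adjusted limit on all arrays (adjusted p = 0.996 and 0.287, limma). The groups overlapped on both sides. Without the narrow arrays both passed, with ORX 0.60 ± 0.12 above control males (adjusted p = 0.0165) and ORX + T at -0.51 ± 0.12 relative to them (adjusted p = 0.0156, limma).

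In females Kcnk3 read 9.67, 9.28, 9.47, 9.90 and 9.01 in control rats, 9.88, 9.91, 9.35, 9.98 and 9.46 in OVX rats, and 9.34, 8.13, 9.69, 9.31 and 8.73 in OVX + E rats. The OVX + E rats overlapped the OVX rats, with the lowest values on the narrow arrays of replicates 2 and 5. OVX + E vs. OVX was -0.67 ± 0.23 (adjusted p = 0.194), and -0.47 ± 0.13 without the narrow arrays (adjusted p = 0.0274, limma). The size of the response to replacement in females minus that in males was 0.51 ± 0.33 on all arrays (adjusted p = 0.812) and 0.64 ± 0.18 without the narrow arrays (adjusted p = 0.0517, limma), so a difference between the sexes passed in neither, though it did with the array SD as a covariate (0.74 ± 0.18, adjusted p = 0.00513, limma).

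Kcnk9, which forms leak channels alone or together with Kcnk3, read 9.42, 9.63, 8.79, 9.55 and 9.15 in ORX rats and 8.90, 8.35, 8.87, 9.02 and 8.51 in ORX + T rats. These groups overlapped through ORX replicate 3, a narrow array. The difference was -0.58 ± 0.22 on all arrays (adjusted p = 0.322) and -0.60 ± 0.11 without the narrow arrays (adjusted p = 0.00115, limma), so the size was nearly the same and the error was smaller. In females, OVX rats read 9.57, 9.40, 8.78, 9.58 and 9.05 and OVX + E rats 9.24, 8.42, 9.05, 9.13 and 7.87. The difference of -0.53 ± 0.22 did not pass on all arrays (adjusted p = 0.332) and was -0.38 ± 0.11 without the narrow arrays (adjusted p = 0.0418, limma). In control males and control females Kcnk9 averaged 9.24 ± 0.20 and 9.27 ± 0.26 (SD, n = 5), and in ORX rats 9.31 ± 0.34. No comparison of ORX or OVX with controls passed for it in any fit. ORX + T vs. control males was -0.51 ± 0.22 on all arrays (adjusted p = 0.763 by limma, exact permutation p = 0.0159), with overlapping groups. It passed in 3 alternative fits, the one without the narrow arrays among them.

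The other leak channels, Kcnk7 and Kcnk12, lie at low signal, with means of 4.62 and 4.92. Both belong to K2P members that pass little or no current when expressed alone. Kcnk12 was outside the rule for named genes and is mentioned because it passed without the narrow arrays, also in the difference between the sexes in response to replacement. It was then 0.46 ± 0.13 higher in OVX + E than in OVX rats (adjusted p = 0.0313) and 0.47 ± 0.11 higher in control females than in control males (adjusted p = 0.0214, limma). On all arrays these differences were 0.33 ± 0.29 and 0.38 ± 0.29 (adjusted p = 0.815 and 1, limma), with the narrow arrays lowest in 6 of 6 groups.

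**Figure D3:**
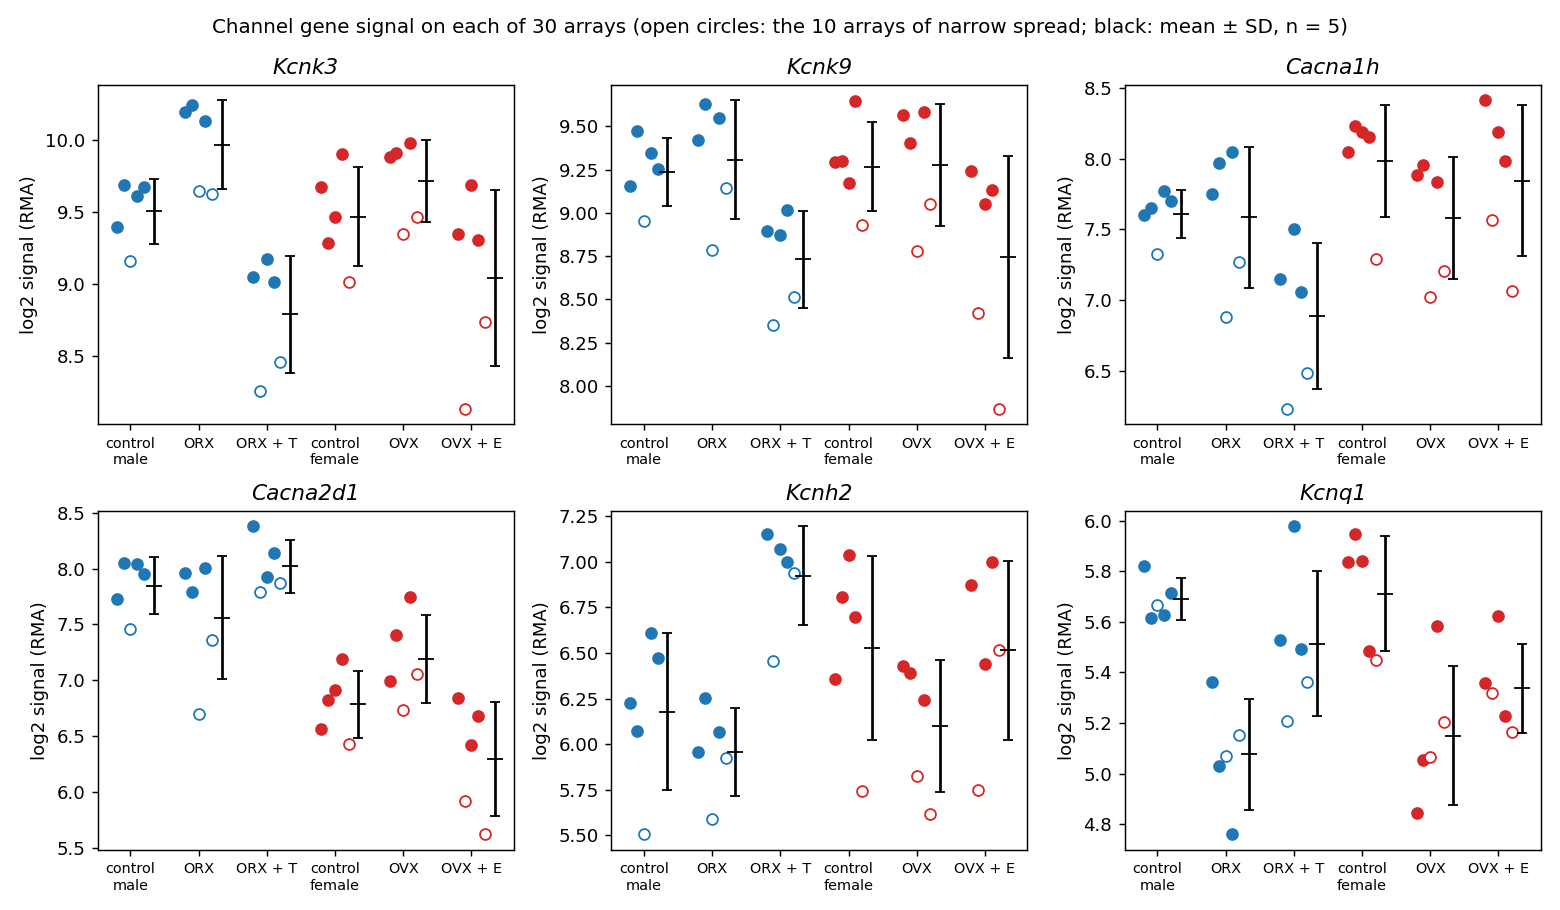
Log2 signal (y axis) of 6 channel genes on each of the 30 arrays, by group (x axis; males blue, females red). Open circles are the 10 narrow arrays, and the black bars give the mean ± SD of 5 rats. For Kcnk3 every ORX + T rat lies below every ORX rat, for Kcnh2 every ORX + T rat lies above every ORX rat, and for Cacna2d1 every control female lies below every control male.

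Several cell type markers changed alongside Kcnk3 and Kcnh2 after testosterone. In ORX + T vs. ORX, 0 of 6 measured zona glomerulosa markers passed by limma (2 at an unadjusted p under 0.05), with the mean level of the list between 6.85 and 7.76 in ORX rats and between 6.99 and 7.45 in ORX + T rats. Of 5 zona fasciculata markers, the ACTH receptor gene Mc2r rose by 0.996 (adjusted p = 0.000496), while Cyp11b1, the enzyme of the last step to corticosterone, and Akr1b7, an aldo-keto reductase, fell by 0.97 and 0.46 (adjusted p = 7.24e-07 and 0.0383, limma), and the list's mean level was 9.67 to 10.07 in ORX and 9.56 to 10.02 in ORX + T rats. Capsule and fibroblast markers gave Dcn and Postn, higher by 0.38 and 0.78, among 7 measured (mean level 5.55 to 6.29 in ORX and 6.13 to 6.79 in ORX + T rats). All 7 were above 0, with a median of 0.41 against -0.01 for all genes, and 4 had an unadjusted p under 0.05 (limma). S100b, of the Schwann and sustentacular cell list, was 1.01 higher, and its list of 2 measured genes ran from 5.23 to 5.67 in ORX and from 6.02 to 6.31 in ORX + T rats. The neurofilament gene Nefl was 0.50 lower among 4 measured nerve fibre markers, whose mean level ran from 4.60 to 5.13 in ORX and from 4.41 to 4.60 in ORX + T rats, and 0 of 10 chromaffin cell markers passed by limma, adjusted or not. The part of these markers' cell types in the channel values was not tested.

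Inward rectifiers (3 of 12 above the median) let potassium in more easily than out and keep the membrane negative. Kcnj14 (Kir2.4) read 4.98, 5.00, 4.66, 5.19 and 4.60 in OVX rats and 4.25, 4.08, 4.16, 4.42 and 4.18 in OVX + E rats. All OVX + E rats lay below all OVX rats, in 1 of 38 genes against 2.29% of all genes, and all 5 also lay under the median of their own array, where a low gene is hard to tell from no signal. The difference was -0.67 ± 0.16 (adjusted p = 0.0185 by limma, exact permutation p = 0.00794) and -0.78 ± 0.17 without the narrow arrays (adjusted p = 0.00762, limma). The call was lost when OVX replicate 1, 2 or 4 or OVX + E replicate 2 was left out, with adjusted p (limma) of 0.0546, 0.0631, 0.0819 and 0.0514. In control females Kcnj14 was at 4.35, 4.32, 4.53, 5.12 and 4.33, and neither OVX (0.36 higher, adjusted p = 1) nor OVX + E (0.31 lower, exact permutation p = 0.0397, not passing after adjustment) was told apart from them by limma.

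In OVX + E vs. OVX, 2 of 6 glomerulosa markers fell beside Kcnj14: Cyp11b2, the aldosterone synthase, by 1.68 (adjusted p = 0.0167) and Nr4a2, a transcription factor of that zone, by 2.10 (adjusted p = 3.01e-05, limma), and the mean level of the list was 7.24 to 7.79 in OVX and 6.25 to 7.37 in OVX + E rats. Nefm, 1 of 4 nerve fibre markers, was 0.51 lower (list 4.60 to 5.08 in OVX and 4.58 to 4.68 in OVX + E rats). None of the 5 fasciculata or 10 chromaffin markers passed by limma, where 0 and 3 had an unadjusted p under 0.05. All 6 glomerulosa markers were below 0, with a median of -0.58 against 0.02 for all genes. So were all 7 capsule and fibroblast markers (median -0.26), all 3 endothelial (-0.43) and all 3 macrophage markers (-0.39). Of the fasciculata markers 3 were above 0 and 2 below, and of the chromaffin markers 2 above and 8 below. The part of these cells in the fall of Kcnj14 was not tested.

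Kcnj8 (Kir6.1), a pore of ATP-sensitive potassium channels known from vascular cells, and Kcnj2 (Kir2.1), a classical strong inward rectifier, passed in no comparison. Group means of Kcnj8 lay between 5.45 (ORX) and 5.82 (control females), and single arrays between 4.34 and 6.24. Kcnj2 ranged from 4.35 to 6.18 over single arrays, and its group means from 4.71 to 5.03. Kcnj5, the inward rectifier in which mutations are known from human aldosterone-producing adenomas, lay below the array median here.

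Voltage-gated potassium channels open on depolarization and repolarize the cell, and 11 of 32 pore genes were above the array median. Kcnh2 (ERG), which carries a current that closes slowly after an action potential, read 5.96, 6.25, 5.59, 6.06 and 5.92 in ORX rats, 7.15, 6.46, 7.07, 7.002 and 6.94 in ORX + T rats, and 6.23, 6.07, 5.50, 6.61 and 6.47 in control males. All ORX + T rats lay above all ORX rats. The difference was 0.97 ± 0.24 (adjusted p = 0.025 by limma, exact permutation p = 0.00794) and 0.99 ± 0.16 without the narrow arrays (adjusted p = 0.00035, limma). With all arrays the call was lost without ORX replicate 1, 3 or 5 (adjusted p = 0.0525, 0.0852 and 0.0567) and without ORX + T replicate 1, 3, 4 or 5 (adjusted p = 0.0822, 0.0683, 0.0685 and 0.0561, limma), and also after median centring (1.01 ± 0.28, adjusted p = 0.074, limma).

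The Kcnh2 signal was also 0.75 ± 0.24 higher in ORX + T rats than in control males, where it did not pass on all arrays (adjusted p = 0.267) and passed without the narrow ones (0.73 ± 0.15, adjusted p = 0.00576, limma). In OVX rats Kcnh2 read 6.43, 6.39, 5.82, 6.24 and 5.62 and in OVX + E rats 6.87, 5.75, 6.44, 7.001 and 6.52. Those groups overlapped, and the difference of 0.42 ± 0.24 did not pass (adjusted p = 0.601, and 0.129 without the narrow arrays, limma), except with the array SD as a covariate (0.59 ± 0.13, adjusted p = 0.00186, limma). The difference between the sexes in this response was -0.55 ± 0.34 (adjusted p = 0.776, limma).

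Kcnq1 (Kv7.1), the pore of the slow delayed rectifier, read lower after gonadectomy in both sexes, without passing on all arrays. It read 5.82, 5.62, 5.67, 5.63 and 5.72 in control males and 5.36, 5.03, 5.07, 4.76 and 5.15 in ORX rats, groups that did not overlap. The difference was -0.61 ± 0.14 (exact permutation p = 0.00794, adjusted p = 0.101 by limma). The adjusted p (limma) was 0.0195 after quantile normalization, 0.0126 with the array SD as a covariate and 0.0777 without the narrow arrays. In ORX vs. control males, 2 of the 38 genes had groups that did not overlap, Kcnq1 and Kcnd3, against 0.969% of all genes.

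In females Kcnq1 read 5.84, 5.95, 5.84, 5.49 and 5.45 in control rats and 4.84, 5.05, 5.06, 5.58 and 5.20 in OVX rats, overlapping through OVX replicate 4. The difference was -0.56 ± 0.14 (exact permutation p = 0.0238, adjusted p = 0.122 by limma, 0.0436 after quantile normalization). After replacement the signal was 5.53, 5.21, 5.98, 5.49 and 5.36 in ORX + T rats and 5.36, 5.32, 5.62, 5.23 and 5.16 in OVX + E rats. ORX + T vs. ORX was 0.44 ± 0.14 on all arrays (adjusted p = 0.139) and 0.62 ± 0.18 without the narrow ones (adjusted p = 0.0429, limma). OVX + E vs. OVX was 0.19 ± 0.14 and passed in no fit.

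Kcnq3 (Kv7.3), which with its relatives carries the M-current that restrains repeated firing, read 4.52, 4.89, 4.61, 4.93 and 4.83 in control males and 4.31, 4.24, 4.33, 4.48 and 4.48 in ORX + T rats. The groups did not overlap, and 4 of 5 ORX + T rats lay under their array median. Kcnq3 met the signal limit only through the control males: their mean was 4.76 and that of the other 5 groups 4.462, under the limit of 4.464. A lower level elsewhere was thus partly fixed by the choice of genes, and the difference of -0.39 ± 0.08 (adjusted p = 0.0121, limma) is given as a description. It also lost the call without replicate 2 or 4 of the control males (adjusted p = 0.0549 and 0.0604), after median centring (0.0698) and in a fit to the arrays of only the compared groups (0.142, limma). In the same comparison 2 of the cell type markers passed, Cyp11b1 at -0.67 (adjusted p = 0.000549) and Postn at 0.62 (adjusted p = 0.0369, limma), and their part in the channel values was not tested.

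The A-type channels Kcnd2 (Kv4.2) and Kcnd3 (Kv4.3) open at subthreshold potentials and inactivate fast. In ORX + T rats Kcnd2 was lower than in control males and Kcnd3 lower than in ORX rats, without passing on all arrays. Kcnd2 read 5.07, 5.05, 4.71, 5.34 and 5.32 in control males and 4.56, 4.46, 4.40, 4.41 and 4.46 in ORX + T rats, groups that did not overlap. The difference was -0.64 ± 0.17 (adjusted p = 0.0943), it passed without replicate 3 of the control males (adjusted p = 0.0473), and it was -0.74 ± 0.15 without the narrow arrays (adjusted p = 0.00626, limma). Of the 5 ORX + T rats, 4 lay under their array median. ORX rats read 4.75, 5.39, 4.46, 5.01 and 4.53 and overlapped the ORX + T rats, with group means of 4.83 in ORX and 4.46 in ORX + T rats. ORX vs. control males was -0.27 ± 0.17 (adjusted p = 0.996, limma), with overlapping groups, and was not told apart from none. In ORX + T vs. control males, Kcnd2 and Kcnq3 were the 2 of 38 genes whose groups did not overlap, against 2.34% of all genes. Kcnq3 met the signal limit only through the control males, so its place in this count was partly fixed by the choice of genes.

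Kcnd3 read 5.83, 5.92, 5.75, 5.65 and 5.43 in ORX rats and 5.30, 5.39, 5.29, 5.21 and 5.30 in ORX + T rats, again without overlap. The difference was -0.42 ± 0.14 (adjusted p = 0.161) and -0.53 ± 0.14 without the narrow arrays (adjusted p = 0.0183, limma). In control males it lay between 5.29 and 5.41, below all ORX rats, and ORX vs. control males was 0.34 ± 0.14 (adjusted p = 0.887, limma). ORX + T rats were close to control males for Kcnd3, at -0.08 ± 0.14 relative to them. In ORX + T vs. ORX 4 of the 38 genes (10.5%) had groups that did not overlap, Kcnk3, Kcnh2, Kcnd3 and Kcnq3, where 2.91% of all genes did.

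The remaining pore genes of this class were Kcna3, Kcng2, Kcng3, Kcnh6, Kcnh8 and Kcnq5, and none passed on all arrays. Kcna3 (Kv1.3), known from lymphocytes, had group means from 5.49 (ORX) to 5.88 (ORX + T) with SDs of 0.38 and 0.48. Kcng2 encodes a silent subunit that acts only together with Kv2 pores, and was picked out after its values were seen because it passed in ORX + T vs. control males without the narrow arrays, 0.44 ± 0.11 higher (adjusted p = 0.0191, limma). On all arrays its difference was 0.33 ± 0.14 (adjusted p = 0.736, limma). The partner subunits Kcnab1, Kcnab2 and Kcnab3, cytoplasmic beta subunits of these pores, were the only 3 of 11 partners above the median. Their differences in the comparisons of groups lay between -0.21 and 0.41, with 95% intervals from -0.45 to 0.64.

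Kcnab3 gave the upper end of that range: it read 4.57, 4.43, 4.58, 4.48 and 4.23 in control males and 5.09, 4.76, 4.94, 4.79 and 4.77 in control females. The female values all lay above the male ones. The difference of 0.41 ± 0.11 did not pass on all arrays (adjusted p = 0.184) and passed without the narrow ones (0.47 ± 0.11, adjusted p = 0.0161, limma). In the comparison of control animals 3 of the 38 genes had groups that did not overlap, Kcnab3, Kcnd3 and Cacna2d1, against 1.02% of all genes.

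Potassium channels opened by calcium or sodium (4 of 8 above the median) couple calcium entry to repolarization. Kcnn3 (SK3), a small-conductance calcium-activated channel, read 5.64, 5.61, 6.01, 5.63 and 5.51 in control males, 5.17, 5.17, 5.29, 4.76 and 5.67 in control females, 5.44, 5.65, 6.10, 5.48 and 5.70 in OVX rats and 5.19, 5.51, 5.22, 4.77 and 5.32 in OVX + E rats. Control females were lower than control males except for replicate 5, a narrow array. The difference was -0.47 ± 0.17 (adjusted p = 0.614) and -0.50 ± 0.13 without the narrow arrays (adjusted p = 0.0398, limma). OVX was 0.46 above control females and OVX + E 0.47 below OVX, and neither passed on all arrays (adjusted p = 0.804 and 0.215) or without the narrow ones, though OVX + E vs. OVX passed with the array SD as a covariate (limma).

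Kcnt1 (Slack), a sodium-activated channel, had its highest group mean in OVX + E rats at 5.81 and lay between 5.28 and 5.50 in the other groups, and no comparison passed. Kcnn4, the intermediate-conductance channel, and Kcnmb4, a beta subunit of the large-conductance channel, had group means from 4.96 to 5.15. No row here carries the symbol of the large-conductance pore Kcnma1 alone, so its level is not given.

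Among calcium channel pores, Cacna1h (Cav3.2) was the only one of 4 matching genes above the array median. It is a T-type channel, which opens at potentials close to rest and is well known in glomerulosa cells. Cacna1h read 7.60, 7.65, 7.33, 7.77 and 7.70 in control males, 7.75, 7.97, 6.88, 8.05 and 7.27 in ORX rats and 7.15, 6.23, 7.50, 7.06 and 6.48 in ORX + T rats. ORX + T rats were lower except where the narrow ORX replicates 3 and 5 came down to them. ORX + T vs. ORX was -0.70 ± 0.27 on all arrays (adjusted p = 0.335) and -0.69 ± 0.12 on the 20 others (adjusted p = 0.000519, limma). Relative to control males, ORX + T was -0.72 ± 0.27 (adjusted p = 0.462) and -0.44 ± 0.11 without the narrow arrays (adjusted p = 0.0224, limma).

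In females Cacna1h read 8.05, 8.23, 8.19, 8.15 and 7.29 in control rats, 7.89, 7.96, 7.02, 7.83 and 7.20 in OVX rats and 8.41, 7.56, 8.19, 7.98 and 7.07 in OVX + E rats. The 3 groups overlapped. OVX + E vs. OVX was 0.26 ± 0.27 (adjusted p = 0.853) and 0.30 ± 0.12 without the narrow arrays (adjusted p = 0.131, limma), and it passed in 1 of the fits tried, with the array SD as a covariate (0.46 ± 0.12, adjusted p = 0.00744, limma). The response to replacement in females minus that in males was 0.96 ± 0.38 on all arrays (adjusted p = 0.396) and 0.99 ± 0.17 without the narrow ones, where it passed (adjusted p = 0.000802, limma). Control females were also 0.48 ± 0.10 above control males without the narrow arrays (adjusted p = 0.0102), and 0.37 ± 0.27 on all of them (adjusted p = 1, limma).

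**Figure D4:**
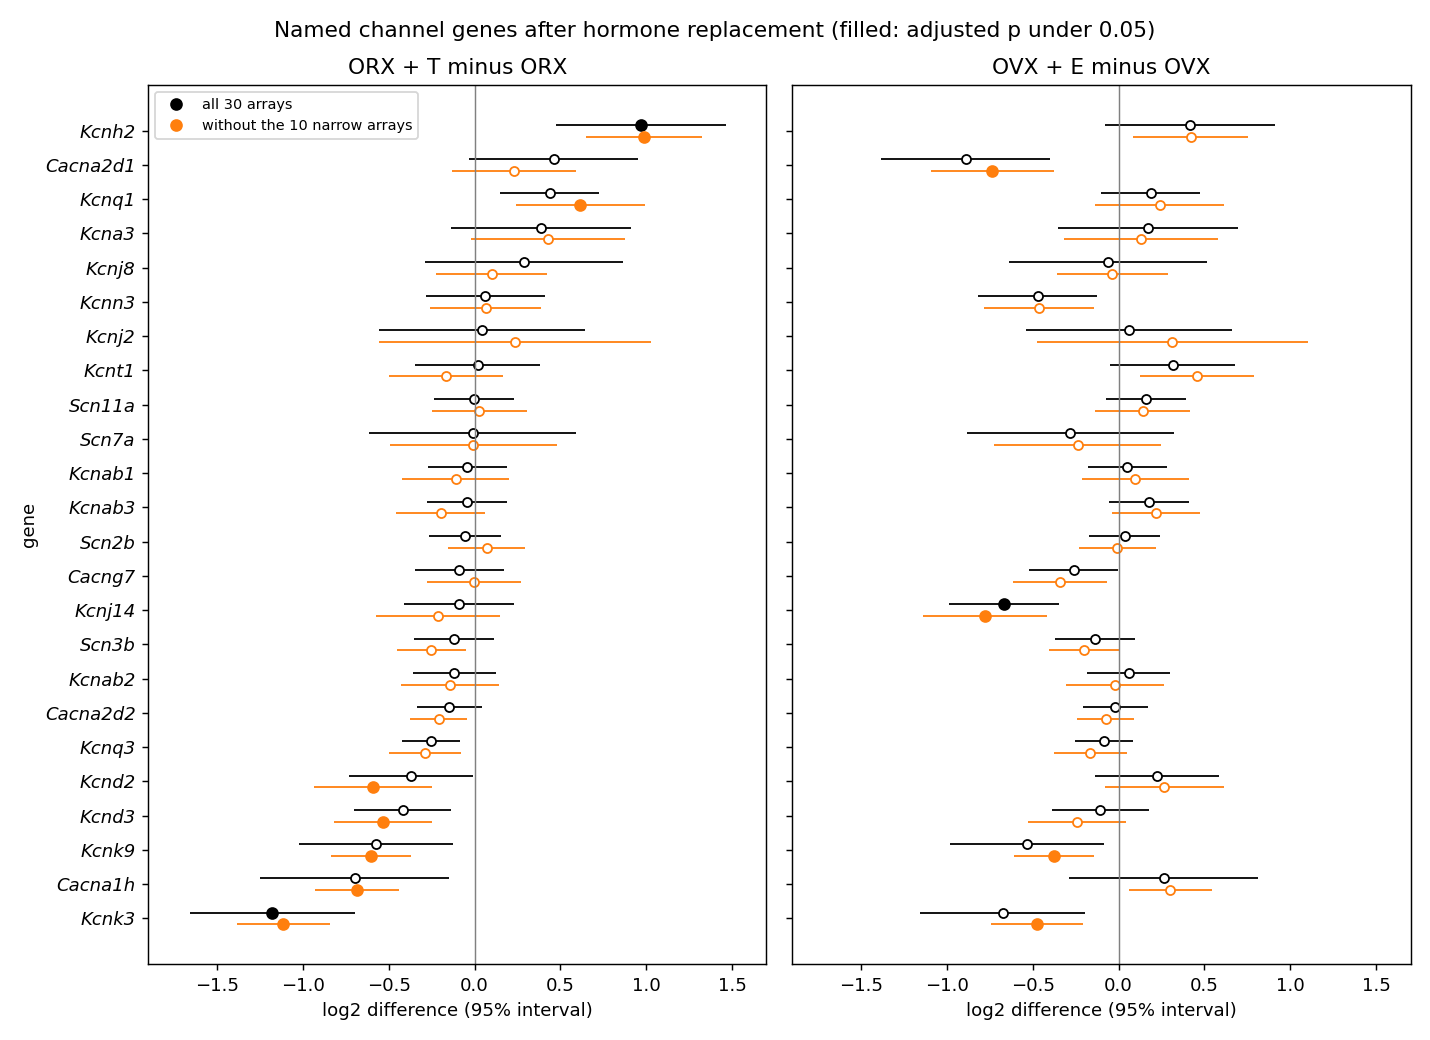
Difference in log2 signal (x axis) of the 24 named channel genes (y axis) in ORX + T minus ORX (left) and OVX + E minus OVX (right), with 95% intervals, for all 30 arrays (black) and without the 10 narrow arrays (orange). Filled points have an adjusted p under 0.05 (limma). On all arrays the filled points are Kcnk3 at -1.18 and Kcnh2 at 0.97 on the left and Kcnj14 at -0.67 on the right, and Cacna1h lies at -0.70 on the left and 0.26 on the right.

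Accessory calcium channel subunits were above the median for 8 of 11 genes, and 1 of them, Cacna2d1, differed between control animals. It encodes an alpha2delta subunit, which brings calcium channels to the cell surface and is the target of gabapentin. Cacna2d1 read 7.72, 8.05, 7.46, 8.04 and 7.95 in control males and 6.56, 6.82, 6.91, 7.19 and 6.43 in control females. Every female lay below every male. The difference of females minus males was -1.06 ± 0.24, a 2.09-fold lower signal (adjusted p = 0.0377 by limma, exact permutation p = 0.00794), and -1.07 ± 0.15 without the narrow arrays (adjusted p = 0.000292, limma). With all arrays, however, the call was lost without control female replicate 1, 2, 3 or 5 (adjusted p = 0.123, 0.097, 0.0835 and 0.101) and without control male replicate 2, 4 or 5 (adjusted p = 0.132, 0.139 and 0.118, limma), and also after median centring (-1.06 ± 0.27, adjusted p = 0.153, limma).

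Cacna2d1 also gave the only channel gene whose response to replacement differed between the sexes on all arrays, where 1.57% of all genes did, and 1.21% with a fold above 2. ORX rats read 7.96, 7.79, 6.69, 8.002 and 7.36 and ORX + T rats 8.38, 7.79, 7.92, 8.14 and 7.87, a difference of 0.46 ± 0.24 (adjusted p = 0.71, limma). OVX rats read 6.99, 7.40, 6.74, 7.75 and 7.05 and OVX + E rats 6.84, 5.92, 6.42, 6.68 and 5.62, a difference of -0.89 ± 0.24 (adjusted p = 0.0524, limma). The OVX + E group had the lowest mean of the 6 groups, and its replicate 1 alone reached above the lowest OVX rat.

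The response in females minus that in males was -1.35 ± 0.34 for Cacna2d1 (adjusted p = 0.0339) and -0.97 ± 0.24 without the narrow arrays (adjusted p = 0.0248, limma). On all arrays this call was lost without ORX replicate 3 or 5 (adjusted p = 0.0696 and 0.0741), ORX + T replicate 1 or 4 (0.0825 and 0.0726), OVX replicate 2 or 4 (0.0745 and 0.087) or OVX + E replicate 2 or 5 (0.075 and 0.0817, limma). It was also lost after median centring (adjusted p = 0.0733), with every probe set tested (0.0533) and with the arrays of the compared groups only (0.106, limma). OVX + E vs. OVX alone passed without OVX replicate 3 (adjusted p = 0.0292), without OVX + E replicate 1 or 4 (0.0233 and 0.04) and without the narrow arrays (-0.73 ± 0.17, adjusted p = 0.0109, limma). In the test of whether gonadectomy acted differently in the sexes 0 of 38 genes passed by limma (0.00687% of all genes). There 1 (2.63%) had an unadjusted p under 0.05, as did 2.14% of all genes. For the response to replacement, 15.8% of the 38 and 7.99% of all genes had an unadjusted p under 0.05.

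Marker lists beside Cacna2d1 in the comparison of control animals gave 1 of 6 glomerulosa markers, Nr4a2, 1.21 higher in females (adjusted p = 0.0499, limma), with the list's mean level at 7.04 to 7.44 in males and 7.04 to 7.67 in females. None of the 10 chromaffin cell, 7 capsule and fibroblast or 4 nerve fibre markers passed there by limma, and 0, 1 and 1 of them had an unadjusted p under 0.05. Chromaffin markers averaged 6.97 to 7.59 in control males and 6.83 to 7.38 in control females, and 6.91 to 7.36 in OVX and 6.50 to 7.28 in OVX + E rats. Where the response to replacement was compared between the sexes, markers did move beside Cacna2d1. Of the 7 capsule and fibroblast markers, Dcn and Postn passed, at -0.64 and -0.92 in females minus males (adjusted p = 0.000322 and 0.0184, limma), all 7 were below 0 and their median was -0.65, against 0.03 for all genes. The mean level of that list was 5.55 to 6.29 in ORX, 6.13 to 6.79 in ORX + T, 5.75 to 6.47 in OVX and 5.55 to 6.16 in OVX + E rats. Nr4a2 (-2.96, adjusted p = 5.84e-05) and Cyp11b1 (0.94, adjusted p = 0.000437, limma) passed as 1 of 6 glomerulosa and 1 of 5 fasciculata markers. The part of any of these cells in the Cacna2d1 values was not tested.

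The other 7 accessory genes, Cacna2d2, Cacna2d3, Cacng1, Cacng3, Cacng6, Cacng7 and Cacng8, passed in no comparison on all arrays or without the narrow ones. Cacng3, Cacng7 and Cacng8 belong to the gamma subunits that are better known as partners of AMPA-type glutamate receptors. Cacng7 read 5.22, 5.20, 4.92, 4.96 and 4.83 in OVX + E rats, all below the control females, which lay between 5.23 and 5.65, and the difference was -0.33 (adjusted p = 0.788, limma). It was the only one of the 38 genes whose groups did not overlap in that comparison, against 0.694% of all genes.

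Voltage-gated sodium channels carry the upstroke of the action potential in chromaffin cells, and 2 of 6 pore genes and 2 of 3 beta subunit genes were above the median. The pores were Scn7a, an atypical channel that senses sodium, and Scn11a (Nav1.9), known from sensory neurons. Scn7a had group means from 5.48 ± 0.58 in control males to 4.79 ± 0.46 in OVX + E rats (SD, n = 5), and its narrow arrays were the lowest in 6 of 6 groups. The differences of the pores between groups lay between -0.45 and 0.16, with intervals from -1.05 to 0.59, so changes of up to about that size were not told apart from none. For the beta subunits Scn2b and Scn3b, which bind to the pores and alter their gating, the differences lay between -0.14 and 0.11, with 95% intervals from -0.37 to 0.32.

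Genes that move or use the same ions were counted from lists written for this purpose. Of 7 measured pumps and exchangers out of 18 listed, 1 changed in ORX + T vs. ORX: Atp1b1, the beta subunit of the sodium and potassium pump, rose by 0.54 ± 0.11 (adjusted p = 0.00557, limma), and its response in females minus that in males was -0.65 (adjusted p = 0.0316, limma). The median of the list in ORX + T vs. ORX was 0.02, against -0.01 for all genes. Of 10 measured genes of calcium release and entry and 13 other ion channels, 0 passed by limma in any comparison, and at most 0 and 1 of them had an unadjusted p under 0.05. Of 8 measured calcium effectors, Nr4a1 and Nr4a2, transcription factors that calcium signals induce in glomerulosa cells, were higher in control females than in control males by 1.62 and 1.21 (adjusted p = 0.0179 and 0.0499), and Nr4a2, which is also on the glomerulosa list, fell in OVX + E vs. OVX by the amount given with Kcnj14.

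Over the whole set, the median absolute log2 difference of the 38 genes was below that of all 14557 genes after gonadectomy alone, at 0.086 against 0.106 in ORX vs. control males and 0.075 against 0.089 in OVX vs. control females. It was above it in the other 5 comparisons of groups, at 0.139 against 0.081 in ORX + T vs. control males, 0.132 against 0.079 in control females vs. males, 0.165 against 0.119 in OVX + E vs. OVX, 0.118 against 0.102 in ORX + T vs. ORX and 0.114 against 0.110 in OVX + E vs. control females. The signed medians of the 38 genes lay between -0.05 and 0.04, and those of all genes between -0.03 and 0.02. The 38 genes were kept for a mean signal above the limit, while the 14557 genes include many dimmer ones. Whether the channel genes differed from other genes of like signal was therefore not tested by these medians. The shares of genes called or with an unadjusted p under 0.05, given above beside those of all genes, have the same limit. Signal was used to sort genes as bright or dim, for the limit and for the choice of named genes. Levels of different genes were not compared otherwise, because the signal of a probe set also depends on its probes. Of 35 textbook channels of adrenal cells, 19 had a named probe set here and 11 of these lay above the median. Kcnk2, Cacna1c, Cacna1d, Cacna1g and Kcnn2 had no probe set with their symbol alone and were not analysed here.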

How the data were processed

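RNA of entire adrenals from 30 rats was measured on Affymetrix whole-transcript gene arrays. The deposited values are log2 signals, made by the authors with RMA (background correction, normalization and summarization, affy package). The authors took their annotation from the oligo package. The gene symbols used here came from a separate reference list of probe sets and genes. Package versions and a genome build are not given in the sources used here, so no positions are printed. Of 36685 probe sets, 14824 had exactly 1 gene symbol, 829 several and 21032 none, and the brightest stood for its gene (14557 genes). Each of the 38 genes described has 1 such probe set. Of the 99 matching symbols, 98 were found in RefSeq by Entrez number and 0 had been renamed.

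Groups were compared in R 4.3.3 by a limma (3.58.1) model of all 30 arrays that gives every group its own mean (24 residual and 2.92 prior degrees of freedom) and Benjamini-Hochberg adjustment over all genes. A gene passed at an adjusted p under 0.05, and the number that also exceeded the 2-fold limit of the authors is given beside it. The 9 comparisons were the 6 of the article, control females vs. control males, and interaction terms of sex with gonadectomy and with replacement. The last 3 are not in the article. Single genes were also compared by an exact permutation test of 5 against 5 arrays. The arrays carry no detection p, and precision is limited by how many there are.

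Named were genes that passed, the 2 brightest of each role class, the textbook channels above the array median and the 2 of lowest p in each comparison (24 genes). Kcng2 and Kcnk12 were added after their values were seen. The members, lists and alternatives were chosen with earlier results of these data known, the supplementary table of the article included. No 2 arrays were copies: their highest correlation was 0.991. Same replicate numbers were not taken to pair rats. The fit was tested on simulated data. Alternatives were replicate number as a block, array SD as a covariate, leaving out the 10 arrays of smallest SD, quantile normalization, median centring, an intensity trend with robust variances, only the upper 60% of genes by mean, testing every probe set, averaging a gene's probe sets, arrays of the compared groups only, a fold above 2, and leaving out each array.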

Additional observations from a re-analysis of the deposited data

Results flagged for a closer look

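The 24 named genes were screened in each of the 6 groups for a rat far from the other 4, and 8 of 144 groups held one, where chance alone marks about 1 group in 20. Of these 8, 4 were on narrow arrays. On narrow arrays, Cacna1h of control female replicate 5 read 7.29, against 8.05 to 8.23 in the other 4 rats, Kcnab3 of ORX replicate 5 read 4.62 (others 4.43 to 4.49), Kcnn3 of control male replicate 3 read 6.01 (others 5.51 to 5.64) and Kcnt1 of OVX replicate 5 read 6.04 (others 5.29 to 5.47). On arrays of ordinary spread, Kcnj2, the Kir2.1 channel, of ORX + T replicate 3 read 6.10, against 4.56 to 4.97 in the other rats of its group. Kcnj14 of control female replicate 4 read 5.12 (others 4.32 to 4.53), Cacng7 of control female replicate 3 read 5.65 (others 5.23 to 5.33) and Scn2b of OVX + E replicate 1 read 4.22 (others 4.62 to 4.74).

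The response of Cacna2d1 to replacement differed between the sexes by the interaction term of the limma fit, at -1.35 in females minus males (adjusted p = 0.0339), with all 5 of the control females also below all control males. The interaction call was lost in 11 of the alternative fits, and the call in control females vs. control males in 8.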

How the results depend on the processing

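Of 216 pairs of a named gene and a comparison, 35 passed in at least one fit, and 0 of these changed sign in an alternative run. The other 181 passed in no fit, and 74 of them changed sign in at least 1 alternative. The number of the 38 genes that passed depended on how the narrow arrays were treated. Without these arrays ORX vs. control males gave 1 (0 with all arrays), ORX + T vs. control males 7 (1), ORX + T vs. ORX 7 (2), OVX + E vs. OVX 5 (1), control females vs. males 5 (1) and the interaction of sex with replacement 4 (1, where 4.30% of all genes passed). With the array SD as a covariate these were 2, 7, 10, 8, 5 and 5, where 1.69%, 5.54%, 9.95%, 14.6%, 4.58% and 9.50% of all genes passed, and OVX vs. control females gave 2 (0; 3.68%). After quantile normalization ORX vs. control males gave 1, ORX + T vs. control males 5, ORX + T vs. ORX 5, OVX vs. control females 1, OVX + E vs. OVX 4 and the interaction of sex with replacement 2, where 0.714%, 3.18%, 5.87%, 1.26%, 5.96% and 4.85% of all genes passed. The number of all genes called moved likewise, for ORX + T vs. ORX from 299 to 973 without the narrow arrays, 1448 with the covariate and 854 after quantile normalization, for OVX + E vs. OVX from 246 to 1119, 2126 and 868, and for ORX vs. control males from 8 to 149, 246 and 104. The cause was not tested.

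Median centring gave 0 in ORX + T vs. control males, 1 in ORX + T vs. ORX, 0 in control females vs. males and 0 in the interaction of sex with replacement. A fold above 2 left 0 in ORX + T vs. control males, 1 in ORX + T vs. ORX and 0 in OVX + E vs. OVX. Of all genes, 0.467%, 1.04% and 0.9% met the adjusted p and the fold limit there. With only the 60% of genes of highest mean, OVX + E vs. OVX gave 2. With every probe set tested, ORX vs. control males gave 1 and the interaction of sex with replacement 0, and with the arrays of the compared groups only the latter also gave 0. Leaving out 1 array gave 0 to 2 in ORX + T vs. control males, 1 to 2 in ORX + T vs. ORX, 0 to 2 in OVX + E vs. OVX, 0 to 1 in control females vs. males and 0 to 1 in the interaction of sex with replacement. Except for the fold limit, the share of all genes called is not given for these fits. Their counts therefore do not tell a change in the channel genes from a change in all genes.

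With the replicate block, ORX + T vs. control males gave 2 (Kcnd2 at -0.64 passed, adjusted p = 0.0437, limma) and OVX + E vs. OVX gave 2 (Cacna2d1 at -0.89 passed, adjusted p = 0.0117, limma), and the block changed no other call: ORX + T vs. ORX gave 2, control females vs. males 1, the interaction of sex with replacement 1, and the other comparisons 0. The share of all genes called with the block is not given here either. The numbers are not known to pair rats: for 48 of 75 equally numbered pairs of arrays the correlation of their deviations was above 0.1 (from -0.76 to 0.87), and 9 of 30 arrays correlated best with their own number.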
